A study of Mus musculus with 17 samples.

Results

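The kinesin superfamily was described here as every gene whose annotated symbol is Kif followed by a digit, which gave 37 members among the 18193 genes measured. Each member was represented by the probe set with the highest mean over the 17 arrays, out of 99 kinesin probe sets annotated to 1 symbol. The same arrays make up the comparisons, so their levels decided that choice, although no difference between groups was used for it. Cells had been sorted from embryonic cortex of the hGFAP-eGFP mouse line, whose enhanced green fluorescent protein (GFP) is under a human GFAP promoter, so all 5 groups carried the same transgene. The groups were GFP-positive cells selected for the surface protein Prominin at E18 (n = 4), GFP-high Prominin-selected cells at E14 (n = 4), GFP-low Prominin-selected cells at E14 (n = 3), GFP-high cells without a stated Prominin gate at E14 (n = 3) and GFP-low cells without a stated Prominin gate at E14 (n = 3). E14 and E18 are embryonic days, Prominin-selected cells are called gated below and the others ungated. The study set out to compare subtypes of radial glia, the progenitors that line the ventricle of the embryonic cortex. A GFP gate reports the activity of the transgene's promoter and not a cell type, and the labels do not say how many embryos or litters stand behind a sample.

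Kinesins are motor proteins that use ATP to walk along microtubules or to take their ends apart. In dividing cells a set of them pushes spindle poles apart, moves chromosomes and builds the bridge at which daughter cells separate. In neurons, which no longer divide, others carry vesicles, mitochondria and membrane proteins along axons and dendrites, and a smaller set works in the cilium, the antenna on which Hedgehog signals are read. By these roles the family was divided into 12 mitotic members, 12 members for transport, 8 members linked to cilia or centrioles and 5 others. The embryonic cortex holds dividing progenitors and newborn neurons side by side, and both classes of motor are known from it.

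Promoter sequence was available for 31 members in a RefSeq table for GRCm38.p6 (300 bases for each start site). The letters TTTGAA, known as the cell cycle homology region or CHR, and the letters CCAAT are the elements through which many genes of mitosis are switched on late in the cell cycle. Both were searched on either strand, and neither contains the letters of the other. Promoters were counted by start site, and some genes have more than 1. CHR letters occurred in 9 of 11 promoters of mitotic kinesins (81.8%), in 1 of 10 promoters of transport kinesins, in 1 of 9 of the ciliary ones and in 17.9% of the 32851 promoters in the table. Within the 85 bases from 60 before to 25 after the start, they occurred in 7 of 11 mitotic promoters (63.6%) and in 4.43% of all promoters. In that window they also stood in 1 of 10 transport promoters, a start site of Kif1a that is not shown, and in 0 of 9 ciliary ones. CCAAT letters occurred in 7 of 11 mitotic promoters (63.6%), in 2 of 10 transport promoters, in 5 of 9 ciliary ones (55.6%) and in 37.4% of all promoters. The windows shown are the 7 mitotic ones with CHR letters, which set beside one another show where the letters stand. They are followed by Kif26b, which is in no mitotic list but carries the same letters, by the mitotic Kif18a, which has none in the window, and by the neuronal Kif3c and Kif5c. These were picked with their sequences and values known, a match of letters is not a binding site, and capitals mark CHR and CCAAT letters on either strand (TTCAAA and ATTGG on the other strand).
Kif11 (chr19:37376322-37376406, plus strand): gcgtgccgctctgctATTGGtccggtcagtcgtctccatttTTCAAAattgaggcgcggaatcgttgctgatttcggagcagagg
Kif15 (chr9:122951021-122951105, plus strand): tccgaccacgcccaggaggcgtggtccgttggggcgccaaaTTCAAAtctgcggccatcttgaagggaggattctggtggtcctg
Kif18b (chr11:102925100-102925184, minus strand): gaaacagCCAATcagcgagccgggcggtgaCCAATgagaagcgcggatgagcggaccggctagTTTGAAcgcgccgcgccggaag
Kif20b (chr19:34922298-34922382, plus strand): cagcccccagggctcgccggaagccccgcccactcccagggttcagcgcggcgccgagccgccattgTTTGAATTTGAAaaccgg
Kif22 (chr7:127042396-127042480, minus strand): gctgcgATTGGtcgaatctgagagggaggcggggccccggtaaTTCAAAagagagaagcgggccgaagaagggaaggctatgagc
Kif23 (chr9:61946775-61946859, minus strand): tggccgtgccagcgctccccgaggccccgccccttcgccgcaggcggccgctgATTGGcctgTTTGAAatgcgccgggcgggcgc
Kif4 (chrX:100626005-100626089, plus strand): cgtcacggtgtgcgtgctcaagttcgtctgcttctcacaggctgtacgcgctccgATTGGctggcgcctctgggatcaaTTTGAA
Kif26b (chr1:178529065-178529149, plus strand): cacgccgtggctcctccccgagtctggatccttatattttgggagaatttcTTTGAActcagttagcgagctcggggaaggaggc
Kif18a (chr2:109280678-109280762, plus strand): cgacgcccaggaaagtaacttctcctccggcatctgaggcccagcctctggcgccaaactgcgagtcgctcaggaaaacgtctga
Kif3c (chr12:3365072-3365156, plus strand): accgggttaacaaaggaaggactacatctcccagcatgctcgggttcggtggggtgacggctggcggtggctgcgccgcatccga
Kif5c (chr2:49619226-49619310, plus strand): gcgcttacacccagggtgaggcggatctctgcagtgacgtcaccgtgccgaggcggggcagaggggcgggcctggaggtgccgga

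Levels below are log2 of the intensity plus 16 after quantile normalisation, so that a difference of 1 is a doubling, and the median gene stood at 6.29. Differences are given with their standard error, and a gene was called where limma's adjusted p, over all 18193 genes, was under 0.05. Gated and ungated arrays differed in more than the gate. The Gapdh signal at the 3′ end exceeded that at the 5′ end by −0.21 to 1.00 at E18, by 0.54 to 1.71 in gated GFP-high cells, by 0.92 to 2.30 in gated GFP-low cells, and by −0.25 to 0.18 in the 6 ungated arrays, and 5 of these 6 were labelled with another kit. Summed deposited signal of 7 proliferation markers other than kinesins was 1696 to 2316 at E18, 6411 to 8375 in gated GFP-high, 3745 to 4467 in gated GFP-low, 12655 to 13354 in ungated GFP-high and 1332 to 2713 in ungated GFP-low cells. Of 8 neuronal markers the sums in the same order were 21470 to 24171, 9736 to 12010, 18247 to 20420, 8679 to 9246 and 33254 to 54291. No marker of either list was at 0. Gfap itself lay between 4.31 and 6.21 on every array, below the median gene, and Prom1, which encodes Prominin, lay at 8.69 to 9.08 at E18, at 10.81 to 11.02 in gated GFP-high, at 10.10 to 10.25 in gated GFP-low, at 10.74 to 10.82 in ungated GFP-high and at 8.30 to 8.84 in ungated GFP-low cells. Among GFP-high cells its ranges in gated and ungated arrays therefore overlapped. Deposited signal of the dap control, a bacterial transcript, was 0.112 to 6.01 on 6 of the 7 gated E14 arrays, 984 on the remaining one, GFP-high replicate 1, and 282 to 1287 on all others. Signal of 18S ribosomal RNA was 2110 to 6147 on the gated E14 arrays, highest on that same replicate, against 569 to 910 at E18 and 114 to 1396 on the ungated arrays. Without gated GFP-high replicate 1, kinesin calls numbered 0 between the gated GFP gates, 18 between E18 and E14 GFP-high cells, 12 for the Prominin gate within GFP-high cells and 10 for the difference of the GFP contrasts, beside 0, 19, 11 and 10 with it.

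Of the 37 members, 27 reached the median gene level in at least 1 group, among them 9 of the 12 mitotic and 11 of the 12 transport members. Kif14, which works with citron kinase at the cleavage furrow, Kif15, a spindle motor that can stand in for Kif11, and Kif2b, a depolymerase of kinetochore microtubules, averaged 4.54, 4.63 and 4.25 over the arrays. These levels lie under the 25th percentile of genes (4.89), and none of these 3 members was called with these settings. In E18 against E14 GFP-high cells Kif2b was called with a pseudocount of 1, and Kif14 with the replicate number as a block and without E14 GFP-high replicate 1. Mitotic members had their highest group mean in ungated GFP-high cells in 10 of 12 cases and their lowest at E18 in 7 of 12. Transport members showed no such common peak, with 6 of 12 highest in ungated GFP-low cells and 4 of 12 highest in ungated GFP-high cells. The dim Kif2b counts among both the 10 and the 7 mitotic cases, and the dim Kif14 among the 7. Their group means were 4.07 to 4.54 and 4.26 to 4.83, so their ranks say little. In all, 26 members were called in at least 1 of 7 comparisons with these settings and 11 in none.

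**Figure D1:**
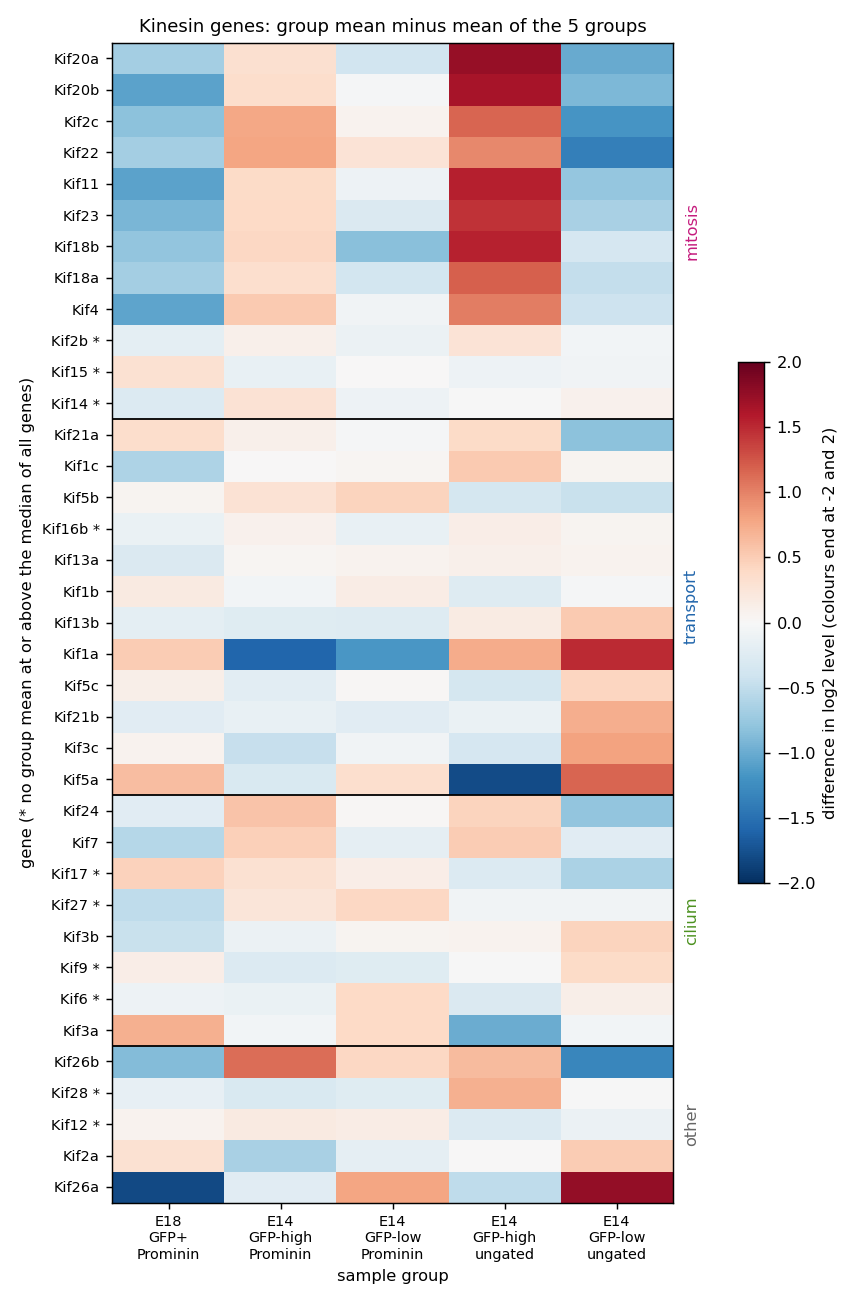
Group mean of each of the 37 kinesins minus the mean of its 5 group means, in log2 units (colour), with groups in columns and members in rows by role; an asterisk marks a member below the median gene level in every group. Most of the upper block of mitotic members is red in the column of ungated GFP-high cells. There 10 of 12 have their highest mean, all but the dim Kif14 and Kif15.

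The comparison of ungated GFP-high with ungated GFP-low cells at E14 showed the widest split within the family. Of the 12 mitotic members, 9 were higher in GFP-high cells and none was lower, with a median log2 difference of 1.98 against −0.01 over all genes. Of the 12 transport members, 4 were lower and 1 was higher, with a median of −0.29. Over the whole family 12 members were higher and 6 lower, beside 7.61% of all genes called higher and 8.16% called lower. Since these are sorted bulk samples, fewer cells of a type and less RNA per cell cannot be told apart.

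Kif20a, which brings the chromosomal passenger complex to the central spindle, had levels of 8.79, 8.87 and 8.80 in ungated GFP-high cells, against 6.39, 5.04 and 6.78 in ungated GFP-low cells. It rose 6.74-fold, a log2 difference of 2.75 ± 0.43 (adjusted p = 0.00556). The GFP-high arrays lay close together, while GFP-low replicate 2 stood well under the other two. Kif20b, a motor of the midbody that is needed for normal brain size in mice, measured 8.81, 9.03 and 8.59 in GFP-high cells, against 6.03, 5.81 and 6.92 in GFP-low cells. This was a 5.86-fold higher level (2.55 ± 0.31, adjusted p = 0.00229). Both groups kept apart for this gene and for Kif20a, with every GFP-high array above every GFP-low array. The 3 other probe sets of Kif20b, with means of 4.38 to 5.31, were not called, and the mean over all 4 differed by 1.04.

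Kif11, the tetrameric motor that slides spindle poles apart, gave 8.91, 9.19 and 9.08 in ungated GFP-high cells, against 6.62, 6.67 and 6.94 in ungated GFP-low cells. The difference of 2.32 ± 0.18 (4.98-fold, adjusted p = 0.000667) was several times the spread within either group. Kif2c, which removes faulty attachments by taking microtubule ends apart, stood at 9.47, 9.10 and 9.25 in GFP-high cells and 6.76, 6.73 and 7.28 in GFP-low cells, 5.08-fold higher (2.35 ± 0.22, adjusted p = 0.000965). Kif22, a motor bound to chromosome arms, had 11.35, 10.61 and 11.08 in GFP-high cells, against 8.16, 8.74 and 9.15 in GFP-low cells. Its 5.02-fold difference (2.33 ± 0.31, adjusted p = 0.0032) came with a wider spread between replicates than that of Kif11. Kif23, the motor subunit of centralspindlin, had 8.98, 8.88 and 8.77 in GFP-high cells and 6.21, 7.49 and 6.67 in GFP-low cells (2.08 ± 0.32, 4.24-fold, adjusted p = 0.0057). Again no array of one group reached the other.

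The remaining called mitotic members rose by smaller amounts. Kif18b, which shortens astral microtubules, differed by 1.87 ± 0.18, Kif18a, which damps chromosome movements at metaphase, by 1.67 ± 0.20, and Kif4, a chromosome and midzone motor, by 1.43 ± 0.25 (adjusted p = 0.00095, 0.00198 and 0.00915). Outside the mitotic list Kif26b rose by 1.92 ± 0.21 (3.8-fold, adjusted p = 0.00147). Kif24, a depolymerase of mother centrioles that holds back cilium growth, rose by 1.24 ± 0.20 (adjusted p = 0.00699), although the mean over its probe sets ended that call (0.21, adjusted p = 0.522). Kif21a, a motor that limits microtubule growth at axon tips, was the 1 transport member that rose, with 10.69, 10.85 and 10.85 in GFP-high cells, against 9.43, 9.56 and 9.79 in GFP-low cells (1.20 ± 0.18, adjusted p = 0.00465).

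**Figure D2:**
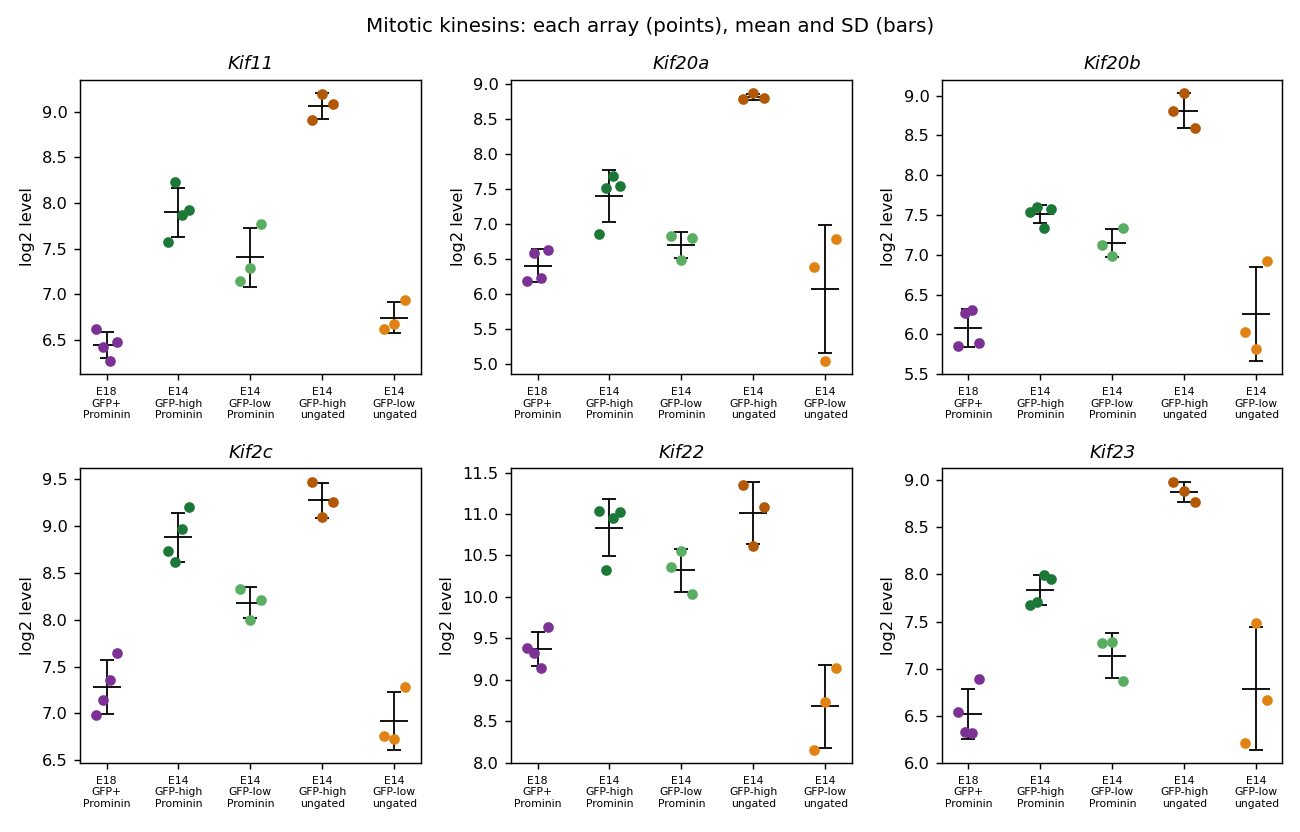
Log2 level of 6 mitotic kinesins on each array (points) with the group mean and SD (bars), groups along the horizontal axis. Ungated GFP-high arrays lie above ungated GFP-low arrays in all 6 panels, and the E18 arrays lie below the gated E14 GFP-high arrays.

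Kif5a was the member with the largest fall. This neuronal heavy chain of kinesin-1 had 7.56, 7.97 and 7.28 in ungated GFP-high cells, against 10.63, 10.55 and 10.52 in ungated GFP-low cells. The 7.79-fold lower level (−2.96 ± 0.22, adjusted p = 0.000643) left a wide gap between the nearest arrays of both groups, and the mean over its probe sets differed by −1.67. Of the other kinesin-1 heavy chains, the neuronal Kif5c had 11.05, 11.40 and 11.22 in GFP-high cells and 11.86, 12.10 and 12.07 in GFP-low cells (−0.78 ± 0.18, adjusted p = 0.0273). The ubiquitous Kif5b was not called and differed by 0.10 (95% interval −0.31 to 0.51).

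Kif26a, an atypical kinesin that lacks motor activity and restrains growth signalling in enteric neurons of mice, measured 8.21, 7.78 and 7.20 in GFP-high cells, against 10.20, 9.96 and 9.83 in GFP-low cells. It was 4.82-fold lower (−2.27 ± 0.28, adjusted p = 0.00232), the opposite direction to its paralogue Kif26b. Kif3c, a neuronal kinesin-2 subunit, had 9.55, 9.24 and 9.82 in GFP-high cells and 10.84, 10.69 and 10.51 in GFP-low cells (−1.14 ± 0.21, adjusted p = 0.0118). Its partner Kif3a, shared between axons and the intraflagellar transport motor, had 7.94, 7.99 and 8.14 in GFP-high cells, against 9.02, 9.15 and 8.74 in GFP-low cells (−0.94 ± 0.18, adjusted p = 0.0145). Groups did not overlap for either subunit. Kif21b, a dendritic relative of Kif21a, gave 10.67, 10.89 and 10.76 in GFP-high cells, against 11.54, 11.56 and 11.79 in GFP-low cells (−0.86 ± 0.17, adjusted p = 0.0158). Kif21b thus differed in the opposite direction to Kif21a, but its call ended with the mean over its probe sets (−0.48, adjusted p = 0.401) and with the replicate number as a block (0.0707). Kif1a, the motor of synaptic vesicle precursors, missed the threshold (−0.76, interval −1.28 to −0.23, adjusted p = 0.0642), as did Kif1b at −0.24 and the endosomal motor Kif13b at −0.35.

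The called members with the smallest differences, Kif5c, Kif21b and Kif3a, kept their direction in the alternatives but not always their call. Where leaving out 1 array ended the call of Kif5c, its difference was still −0.70 to −0.86. Without ungated GFP-high replicate 1, the one array of this comparison with the MessageAmp kit, Kif21b, Kif3a and Kif5c were no longer called (adjusted p = 0.0677, 0.0614 and 0.102). Kif3a and Kif5c were also lost with the replicate number as a block (0.0655 and 0.0826), and Kif5c with the mean over probe sets, the Gapdh covariate and a pseudocount of 1 (0.115, 0.0767 and 0.0567). Kif21b was also lost without GFP-high replicate 3 (0.0611), Kif3a without GFP-high replicate 2 or GFP-low replicate 1 (0.0518 and 0.055), and Kif5c without any 1 array except GFP-high replicate 2 (0.0546 to 0.102).

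The partners with which these motors work were counted from lists of their own. All 20 spindle and midzone partners rose in ungated GFP-high cells (median log2 difference 2.68), among them Racgap1, the partner of Kif23 in centralspindlin, at 2.31 ± 0.23, and Aurkb, the passenger kinase, at 2.70 ± 0.31. Cenpe, a kinetochore kinesin whose symbol does not begin with Kif, rose by 2.85 ± 0.48 (adjusted p = 0.00787). Of 17 kinesin light chains and cargo adaptors measured, 10 fell and none rose. Klc1, a light chain of kinesin-1, fell by 1.32, Kifap3, the accessory subunit of the Kif3 motors, by 1.39 and Sybu, an adaptor for axonal syntaxin vesicles, by 1.95. Of 18 subunits of dynein and dynactin, the motor that runs the other way, 4 fell and 1 rose, led by the neuronal intermediate chain Dync1i1 at −3.37 ± 0.32. The sums of proliferation and neuronal markers given above split in the same directions between these groups, and their part in these results was not tested. Aurka, Plk1 and Bub1b stand both among those proliferation markers and in the spindle and midzone list, so these are not separate lists.

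Among gated cells at E14 the same contrast of GFP gates gave no called kinesin in either direction, beside 0.478% of all genes called higher and 1.2% called lower by limma. At an unadjusted p under 0.05, 12 members were higher in GFP-high cells and 4 were lower, beside 5.69% and 7.72% of all genes. Of the 12 members on the higher side 9 were mitotic, and the mitotic list had a median log2 difference of 0.56 against −0.01 over all genes. Groups did not overlap for 7 members on the higher side and 3 on the lower (all genes, 5.72% and 7.51%). Summed signal of 7 markers of Cajal-Retzius neurons, an early-born class at the cortical surface, was 620 to 794 in gated GFP-high cells, against 3523 to 5036 in gated GFP-low cells, and 6 of the 7 were called lower. No marker was at 0, and their part in the kinesin values was not tested. With a pseudocount of 64, Kif23, Kif26b and Kif2c were called, and Kif23 and Kif26b were called when the dimmest 40% of genes were left out.

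Kif18b showed the largest difference among gated cells, with 7.39, 7.14, 7.06 and 7.10 in GFP-high cells, against 6.31, 6.70 and 4.77 in GFP-low cells. GFP-low replicate 3 lay far below the other two, and the log2 difference was 1.25 ± 0.39 (adjusted p = 0.161). Kif20a had 6.85, 7.52, 7.69 and 7.54 in GFP-high cells, against 6.82, 6.48 and 6.80 in GFP-low cells (0.70 ± 0.21, adjusted p = 0.144). Here GFP-high replicate 1 lay just above the highest GFP-low array, and the other GFP-high arrays were clear of them. Kif2c gave 8.73, 8.61, 8.97 and 9.20 in GFP-high cells and 8.33, 8.00 and 8.21 in GFP-low cells (0.70 ± 0.20, adjusted p = 0.11). Kif23 gave 7.68, 7.71, 7.99 and 7.95 in GFP-high cells and 7.27, 7.28 and 6.87 in GFP-low cells (0.69 ± 0.18, adjusted p = 0.0867). Neither of them overlapped between the gates.

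Kif26b came nearest to a call, with 10.18, 9.76, 9.62 and 9.72 in gated GFP-high cells, against 9.27, 9.27 and 8.84 in gated GFP-low cells (0.70 ± 0.18, adjusted p = 0.0766). Kif7, the motor that orders Gli proteins at the tip of the cilium, had 7.35, 7.53, 7.27 and 6.91 in GFP-high cells and 6.85, 6.61 and 6.36 in GFP-low cells (0.66 ± 0.21, adjusted p = 0.16). Its groups did not overlap. Kif20b and Kif11 differed by 0.37 and 0.49 (adjusted p = 0.357 and 0.286), and Kif11 overlapped between the groups. On the other side Kif26a had 8.72, 8.26, 7.52 and 7.50 in GFP-high cells, against 9.13, 8.53 and 9.39 in GFP-low cells, with overlap (−1.02 ± 0.30, adjusted p = 0.128). Kif5a had 9.47, 9.15, 9.03 and 8.72 in GFP-high cells, against 9.97, 9.97 and 9.25 in GFP-low cells (−0.64 ± 0.22, adjusted p = 0.213). GFP-low replicate 3 of Kif5a fell inside the GFP-high range. Among partners, 3 of 20 spindle and midzone genes were called higher, Bub1b at 1.03 ± 0.17, Aurkb at 1.02 ± 0.18 and Tpx2 at 0.67 ± 0.15, and of the dynein list Dync1i1 was called lower (−1.22 ± 0.20).

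**Figure D3:**
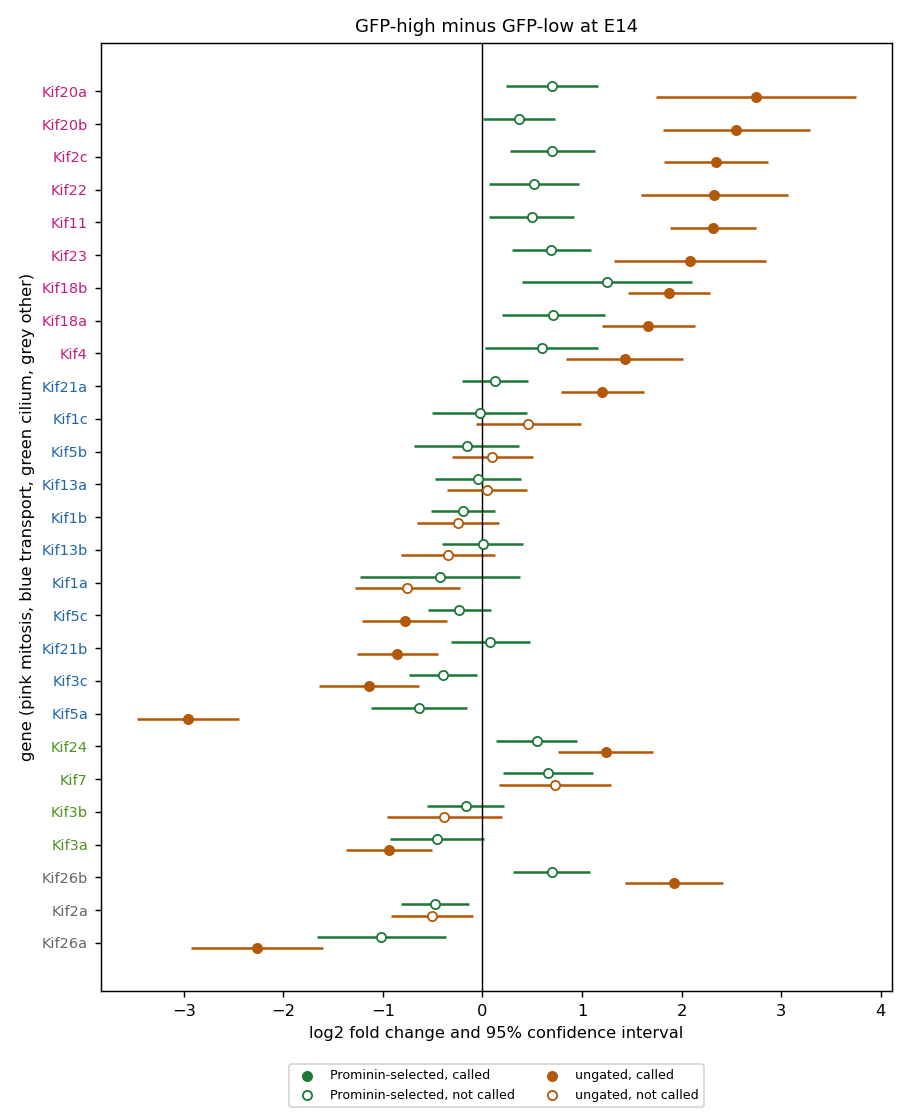
Log2 fold change of GFP-high over GFP-low cells at E14 with its 95% confidence interval, for the 27 members at or above the median gene level in some group; green for gated and orange for ungated cells, filled where called. All gated points are open, and the mitotic members at the top lie further right in orange than in green.

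The difference between the gated and the ungated contrast was tested directly over all 17 arrays. It was called for 8 members on the negative side and 2 on the positive side, beside 3.83% and 3.87% of all genes. Of the 12 mitotic members 6 were on the negative side, that is, their gated difference was smaller than their ungated one, and the list's median was −1.18 against 0.00 over all genes. Kif20b differed most at −2.18 ± 0.33 (adjusted p = 0.000724), followed by Kif20a, Kif11, Kif22, Kif2c and Kif23, down to −1.39 ± 0.35 (adjusted p = 0.0212). Kif26b at −1.23 ± 0.27 and Kif21a at −1.08 ± 0.22 were also negative. Kif5a was positive at 2.33 ± 0.32 (adjusted p = 0.000435), its log2 difference being −0.64 in gated and −2.96 in ungated cells, and Kif21b was positive at 0.94 ± 0.25. The call of Kif23 ended without gated GFP-low replicate 1 or 2, or ungated GFP-high or GFP-low replicate 1 (adjusted p = 0.0503 to 0.056). That of Kif21b ended without gated GFP-low replicate 1 or 3, gated GFP-high replicate 2, ungated GFP-high replicate 1 or 3, or ungated GFP-low replicate 3 (0.0508 to 0.0794). With the mean over probe sets the calls of Kif20b, Kif21a and Kif21b ended (−0.73, −0.72 and 0.46, adjusted p = 0.0928, 0.0941 and 0.526). None of the other probe sets of these 3 genes was called. Gated and ungated arrays also differed in the Gapdh measure and largely in the kit. With the Gapdh measure as a covariate all 10 members were still called. With the kit as a block 8 of the 10 were, all but Kif21b and Kif23 (adjusted p = 0.0733 and 0.0518). The kit varied only within ungated GFP-high cells, so that fit gives the same values as leaving out their replicate 1 and is no separate check. It cannot show whether the GFP differences themselves depend on the kit.

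**Figure D4:**
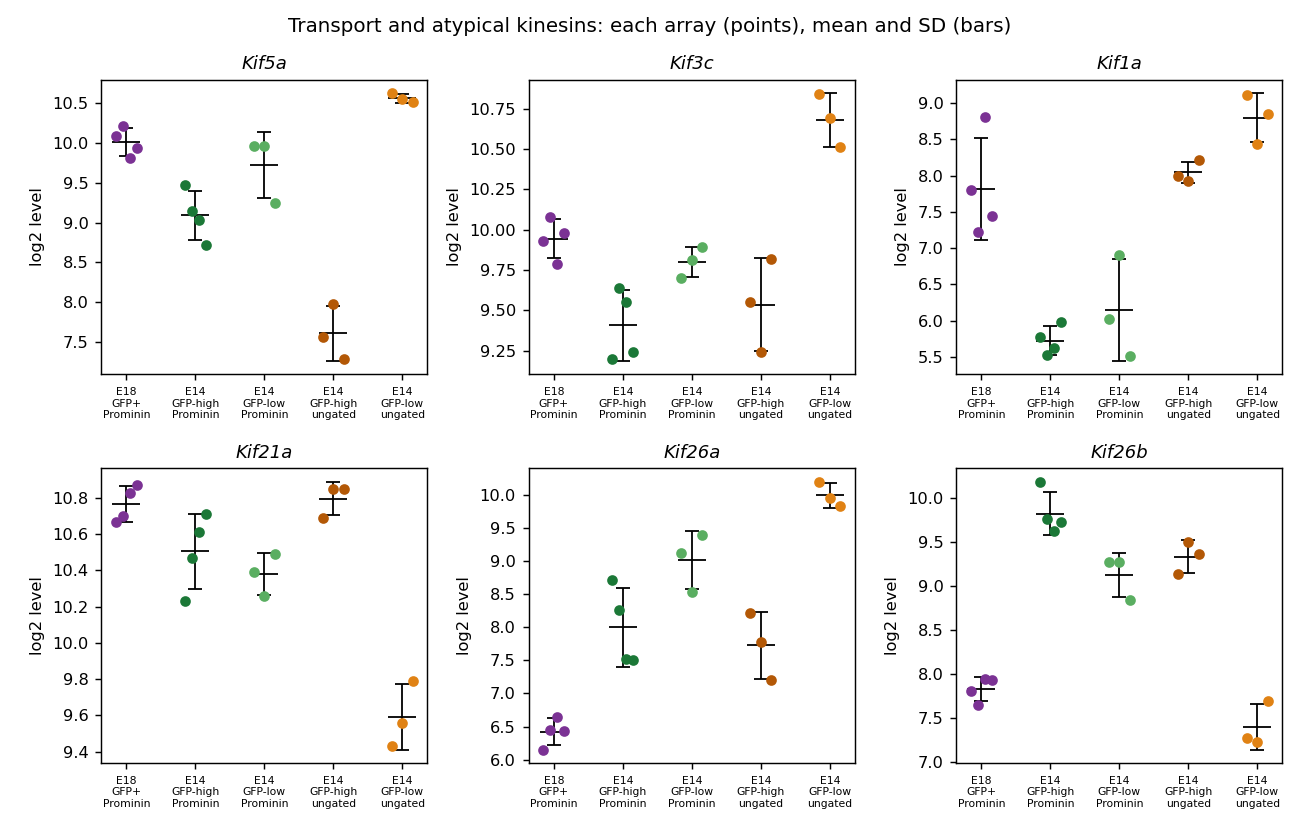
Log2 level of 4 transport kinesins and of Kif26a and Kif26b on each array (points) with the group mean and SD (bars), groups along the horizontal axis. Kif5a and Kif26a are highest in ungated GFP-low cells, where Kif21a and Kif26b are lowest, and Kif1a is lower on all 7 gated E14 arrays than on any other array.

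Between E18 GFP-positive and E14 GFP-high gated cells, 14 members fell and 5 rose, beside 16.5% of all genes called lower and 10.2% called higher. The E18 gate was GFP-positive, while the E14 gates were GFP-high or GFP-low. In both E18 comparisons age and GFP gate therefore differ together and cannot be told apart. The same 9 mitotic members that rose in ungated GFP-high cells fell here, with a median of −1.25 for the 12 against −0.07 over all genes. Of the transport members 3 rose and 1 fell. With values as deposited this all-gene median stood at 0.04, and member differences are to be read relative to it. E18 arrays also held summed signal of 2847 to 3237 for 6 interneuron markers, against 257 to 501 in gated E14 GFP-high arrays, and of 1518 to 2592 for 4 oligodendrocyte markers, against 69.8 to 121. The part of these cells in the kinesin levels was not tested.

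Kif26b fell most, with 7.81, 7.65, 7.95 and 7.93 at E18, against the E14 GFP-high values already given (−1.99 ± 0.17, 3.96-fold lower, adjusted p = 4.94e-06). Every E18 array lay far below the lowest E14 GFP-high array. Kif2c had 6.98, 7.14, 7.36 and 7.65 at E18, against a mean of 8.88 ± 0.26 at E14 (−1.60 ± 0.18, adjusted p = 5.09e-05). Kif4 had 5.96, 6.32, 6.78 and 6.07 at E18, against 8.00, 7.80, 7.78 and 7.89 at E14 (−1.58 ± 0.24, adjusted p = 0.000414). Kif22 had 9.38, 9.33, 9.14 and 9.64 at E18, against 11.04, 10.32, 10.95 and 11.03 at E14 (−1.46 ± 0.19, adjusted p = 0.000147). None of these genes overlapped between the groups, even though E14 replicate 2 was the low array for Kif22. Kif11 measured 6.62, 6.42, 6.27 and 6.48 at E18, against 7.57, 8.23, 7.87 and 7.92 at E14 (−1.45 ± 0.18, 2.73-fold lower, adjusted p = 9.35e-05). Kif26a measured 6.15, 6.45, 6.65 and 6.43 at E18, against a mean of 8.00 ± 0.60 at E14 (−1.58 ± 0.28, adjusted p = 0.00106). Both paralogues were thus lower in E18 than in E14 GFP-high cells, although they ran in opposite directions between the ungated GFP gates.

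Kif20b, Kif23, Kif18b, Kif18a and Kif20a fell by 1.43, 1.31, 1.19, 1.02 and 0.99 (adjusted p = 3.11e-05, 0.000124, 0.0283, 0.00426 and 0.0024). All 20 spindle and midzone partners fell as well, with a median of −1.39, and Cenpe fell by 1.81. Of the ciliary members Kif7 had 6.38, 5.76, 6.38 and 6.35 at E18, against a mean of 7.27 ± 0.26 at E14 (−1.05 ± 0.19, adjusted p = 0.00139), and Kif24 fell by 0.79, a call that ended with the mean over its probe sets (−0.38, adjusted p = 0.0528). Among the 15 measured genes of intraflagellar transport and cilium, 6 fell and none rose.

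The 5 members that rose at E18 were Kif1a, Kif5a and Kif3c of the transport list, Kif3a of the ciliary list and Kif2a. Kif1a had 7.80, 7.22, 8.81 and 7.45 at E18, against 5.77, 5.52, 5.62 and 5.98 in E14 GFP-high cells (2.10 ± 0.34, 4.28-fold higher, adjusted p = 0.000659). E18 replicate 4 was the highest of these, and the lowest E18 array was still above every gated E14 array. Ungated E14 cells had Kif1a means of 8.04 (GFP-high) and 8.80 (GFP-low), above the E18 mean of 7.82. Another probe set of Kif1a, however, differed by 0.01 (adjusted p = 0.987 over probe sets), so the rise was seen with only 1 of its 2 probe sets. Kif2a, a depolymerase that prunes axon branches in the mouse brain, had 9.78, 9.69, 9.83 and 9.80 at E18, against 8.49, 8.79, 9.06 and 8.92 at E14 (0.96 ± 0.15, adjusted p = 0.000385). Kif5a had 10.09, 10.21, 9.81 and 9.94 at E18, against a mean of 9.09 ± 0.31 at E14 (0.92 ± 0.21, adjusted p = 0.00511). Kif3a had 9.90, 9.50, 9.86 and 9.70 at E18, against 8.53, 9.40, 8.89 and 9.06 at E14 (0.77 ± 0.20, adjusted p = 0.0122). Groups did not overlap for these 3 genes, though for Kif3a E14 replicate 2 came close to the lowest E18 array. Kif3c had 9.93, 10.08, 9.79 and 9.98 at E18, against 9.20, 9.64, 9.55 and 9.24 at E14 (0.54 ± 0.14, adjusted p = 0.0146), and Kifap3 rose by 0.68 ± 0.14.

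With the Gapdh measure as a covariate Kif3a, Kif5a, Kif18a and Kif20a were no longer called (adjusted p = 0.107, 0.0994, 0.0826 and 0.0622), and Kif3c was not called with values as deposited or with the replicate number as a block (0.0503 and 0.0857). With the mean over probe sets Kif5a differed by 0.16 (adjusted p = 0.565), and neither of its 2 other probe sets was called. By the same mean Kif11, Kif20b, Kif23, Kif2c and Kif1a kept their calls at −0.79, −0.62, −0.57, −0.81 and 1.05. That mean includes the probe set used, so a kept call does not show that the others agree. Of the other probe sets, 1 of 2 was called in the same direction for Kif11 and 1 of 3 for Kif20b. None was called for Kif23, Kif2c or Kif1a, although all 2 of Kif23 and all 3 of Kif2c had the same sign. Kif18b was lost without any of E18 replicates 2, 3 and 4 or E14 GFP-high replicates 1, 2 and 4 (0.0518 to 0.0886). Kif1c, which fell by 0.64, was lost without any of E18 replicates 2, 3 and 5 or E14 GFP-high replicates 1 and 4 (0.0606 to 0.0963). Both were also lost with values as deposited (0.0579 and 0.236) and with the replicate number as a block (0.0637 and 0.231). Kif18b was lost with a pseudocount of 1 (0.0998), and Kif1c with the mean over probe sets (−0.21, adjusted p = 0.369).

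**Figure D5:**
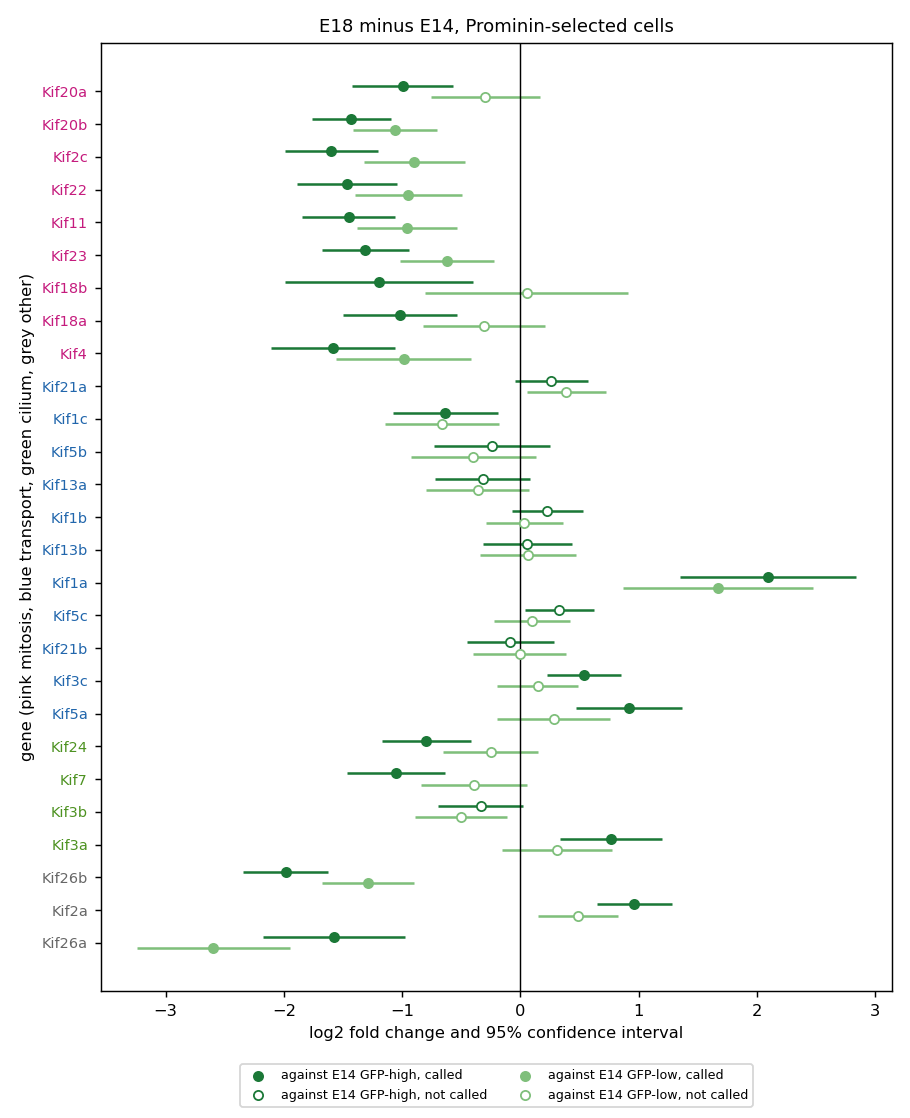
Log2 fold change of E18 over gated E14 cells with its 95% confidence interval, for the 27 members at or above the median gene level in some group; dark green against E14 GFP-high and light green against E14 GFP-low, filled where called. Mitotic members lie left of 0 against E14 GFP-high cells, while Kif1a lies furthest right against both.

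Against E14 GFP-low gated cells, 9 members fell at E18 and 1 rose, beside 11.4% of all genes called lower and 6.02% called higher. These comparisons share the E18 arrays, so each is given by its own values. Of the mitotic members 6 fell, Kif20b, Kif4, Kif11, Kif22, Kif2c and Kif23, and the list's median was −0.46 against −0.10 over all genes. With the mean over probe sets 4 of these 6 calls ended, at −0.45 for Kif11, −0.31 for Kif20b, −0.31 for Kif2c and −0.05 for Kif23 (adjusted p = 0.173, 0.228, 0.201 and 0.86). With the Gapdh measure as a covariate Kif11, Kif2c and Kif23 ended (0.173, 0.155 and 0.179), and with the replicate number as a block Kif22, Kif23 and Kif4 (0.0747, 0.0884 and 0.12). The Cajal-Retzius markers summed to 876 to 1605 at E18, against 3523 to 5036 in E14 GFP-low cells, with 5 of 7 called lower, and their part was not tested. Kif26a had the largest fall, with the E18 values above against 9.13, 8.53 and 9.39 in E14 GFP-low cells (−2.60 ± 0.30, 6.04-fold lower, adjusted p = 0.000151). Kif26b fell by 1.29 and Kif20b, with 5.86, 6.27, 6.30 and 5.89 at E18, against 7.12, 6.98 and 7.33 in E14 GFP-low cells, by 1.06 (adjusted p = 0.000497 and 0.00107). Kif1a rose against 6.03, 6.90 and 5.51 in E14 GFP-low cells (1.67 ± 0.37, adjusted p = 0.00844), a call that ended with the Gapdh measure as a covariate and with the mean over its probe sets (adjusted p = 0.34 and 0.125). Kif18b, at 0.05 (interval −0.80 to 0.91), and Kif20a, at −0.30 (interval −0.76 to 0.17), were not called. The groups overlapped for Kif23, Kif4 and Kif27, a relative of Kif7 that was dim throughout, and these calls were lost without single arrays of either group: Kif23 without E18 replicate 2, 3 or 4 or GFP-low replicate 1 or 2 (0.0691 to 0.118), Kif4 without E18 replicate 2 or 5 or GFP-low replicate 1 or 2 (0.055 to 0.0952) and Kif27 without E18 replicate 2, 3 or 5 or any 1 GFP-low array (0.0651 to 0.138).

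Gated and ungated cells were compared within each GFP gate, with the kit and the Gapdh measure differing along with the gate. Within GFP-high cells 9 members were lower in gated cells and 2 were higher, beside 8.98% and 11.8% of all genes. Markers of cell types and of proliferation moved with the gate here. Interneuron markers summed to 257 to 501 in gated cells, against 41.1 to 90.4 in ungated cells, with 5 of 6 called higher. Of the neuronal markers 5 of 8 were called higher, of the radial glia markers 5 of 9 lower and of the proliferation markers 4 of 7 lower. Their part in the kinesin levels was not tested. Among the members Kif1a fell most, its gated values above standing against 8.00, 7.92 and 8.21 in ungated GFP-high cells (−2.32 ± 0.34, adjusted p = 0.000151). With the Gapdh measure as a covariate it differed by −1.15 and was not called (adjusted p = 0.0724). Of the mitotic members 6 were lower, led by Kif20a at −1.42 ± 0.31 and Kif20b, with 7.54, 7.60, 7.34 and 7.57 in gated cells, against the ungated values above (−1.30 ± 0.22). Kif20a was not called with the kit as a block (adjusted p = 0.0738), nor Kif20b with the mean over its probe sets (−0.34, adjusted p = 0.181). With the Gapdh covariate Kif11, Kif20a and Kif20b kept their calls. Kif18a, Kif18b and Kif23 lost theirs, at −1.14, −0.57 and −1.16 (adjusted p = 0.0522, 0.568 and 0.073). Outside the mitotic list Kif2a and Kif28 were lost in the same way (−0.69 and −1.33, adjusted p = 0.0865 and 0.121). Kif5a was higher in gated GFP-high cells by 1.49 ± 0.22 and Kif3a by 0.94 ± 0.20. Kif5a was not called with the mean over its probe sets (0.53, adjusted p = 0.102), nor Kif3a with the Gapdh covariate or within the MessageAmp kit (0.0588 and 0.0575). When only the array of ungated GFP-high cells with the MessageAmp kit was set against the gated ones, 6 members were called, namely Kif11, Kif1a, Kif20a, Kif20b and Kif23 as lower and Kif5a as higher. That fit has a lone ungated array, which is assumed to vary like the other groups. Kif18b ended without any 1 array of this contrast except gated replicate 1 (adjusted p = 0.0541 to 0.0885). The dim Kif28 ended without gated replicate 1, 2 or 4 or ungated replicate 2 or 3 (0.0555 to 0.212).

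Within GFP-low cells 7 members were lower in gated cells and 8 were higher, beside 8.46% and 10.8% of all genes. Other cell types moved with the gate here as well. Cajal-Retzius markers summed to 3523 to 5036 in gated cells, against 393 to 631 in ungated cells, with 6 of 7 called higher, and interneuron markers to 394 to 642, against 151 to 220, with 4 of 6 called higher. Their part in the kinesin levels was not tested. Kif26b was highest, its gated values above standing against 7.28, 7.23 and 7.70 in ungated GFP-low cells (1.72 ± 0.20, adjusted p = 4.31e-05). Kif22, with 10.36, 10.56 and 10.04 in gated cells, against the ungated values above, was higher by 1.63 ± 0.27, and Kif2c by 1.25 ± 0.22, the last not called with the mean over its probe sets (0.30, adjusted p = 0.219). In gated cells Kif1a fell by 2.65, against 9.11, 8.44 and 8.85 in ungated cells (adjusted p = 0.000142), and Kif26a and Kif21b fell by 0.98 and 0.95. Kif21b had 10.56, 10.97 and 10.53 in gated GFP-low cells, clear of the ungated arrays. With the kit as a block only Kif26b was called, and with the Gapdh measure as a covariate only Kif22, Kif26b and Kif3c. Gated and ungated GFP-low arrays share no kit. The kit fit therefore rests on how ungated GFP-high replicate 1 differs from its group, and it cannot separate the kit from the gate here. Kif26a ended without any 1 array of this contrast except gated replicate 3 (adjusted p = 0.0504 to 0.168). Kif11 and Kif20b ended without gated replicate 3 or ungated replicate 1 or 2 (0.0648 to 0.138), Kif5a without gated replicate 3 or ungated replicate 1 (0.0594 and 0.104), Kif5b without ungated replicate 1 (0.0515) and Kif13b without ungated replicate 2 (0.0646).

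Of the 37 members, 25 had more than 1 probe set, and these did not always move together. In ungated cells both other probe sets of Kif11 and of Kif22 and all 3 of Kif3a were called in the direction of the one used. Kif1b was uncalled in that comparison with the probe set used, yet 3 of its 6 others were called higher in GFP-high cells, at 1.49 to 2.51, and in the E18 comparison with E14 GFP-high cells 4 of the 6 were called lower, at −0.87 to −1.63. Kif5c gave the widest disagreement, between gated and ungated GFP-high cells, where the probe set used differed by 0.13, another by 2.18 and a further one by −2.26. For Kif2c in the same comparison the probe set used differed by −0.39 and 2 others by −2.12 and −2.40. The members without a call in any comparison with the settings used throughout were Kif12, Kif13a, Kif14, Kif15, Kif16b, Kif17, Kif1b, Kif2b, Kif3b, Kif6 and Kif9, and 8 of these 11 lay below the median gene level in every group. Of the 3 that did not, Kif13a, an endosomal motor, had group means between 7.06 and 7.45, and Kif3b, the intraflagellar partner of Kif3a, between 6.90 and 7.80.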

How the data were processed

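RNA of each sample was biotin-labelled and hybridised to 1 mouse expression array, and the deposited values are intensity values on a linear scale for 45101 probe sets, which the authors had already summarised to 1 signal per probe set. Which software and scaling made them is not given in the sources used here, but the trimmed mean was 150 on every array. Median signal per array was 24.2 to 45.1, and precision is limited by how many arrays each group has. Values were put on the log2 scale, log2(deposited intensity + 16), and quantile-normalised over 45037 non-control probe sets (R 4.3.3, limma 3.58.1, Python 3.11.15 with matplotlib 3.10.9 and pandas 2.3.3). Of 34945 probe sets with 1 symbol, the one with the highest mean stood for each of 18193 genes, and 1 kinesin probe set with several symbols was left out. Limma's linear models with empirical Bayes (two-sided) were fitted over all genes, with Benjamini-Hochberg adjustment and a call at adjusted p under 0.05. The GFP comparison in ungated cells used the 6 ungated arrays, the gated GFP and age comparisons the 11 gated arrays, and the others all 17. The fits were tested on simulated data.

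Every member could be named. Values of every array were given for up to 6 called members in each direction of the GFP comparisons and of the age comparison with E14 GFP-high cells, and up to 3 elsewhere, ranked by size, where the higher group mean reached the median gene level. Other members are described by their mean, range or count, except that the uncalled gated E14 values and those of Kif7 and Kif21a were shown after they were seen. A fold is written only where the lower mean exceeds the 25th percentile. The members and lists were chosen with earlier results of these data known. Arrays that share a replicate number deviated from their group means with correlations of −0.144 to 0.0402, and no pairing was assumed. The labels do not state that replicates are of separate litters. The p-values therefore set a difference only against how far these samples spread within groups, and that spread may be technical. Other scalings, pseudocounts (1 and 64), a filter on dim genes, the mean over probe sets, block and covariate fits and leaving out single arrays were the alternatives. RefSeq promoter windows were of GRCm38.p6, a build used for no measured value.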

Additional observations from a re-analysis of the deposited data

Results flagged for a closer look

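In groups of 4 arrays, 1 array stood apart from the rest in 6 of 74 tests, where chance marks about 1 in 20. Of these, 4 were kinesins at E18. Kif1b, the mitochondrial and vesicle motor, reached 11.28 on replicate 5, the dim Kif14 reached 4.73 on the same replicate, and the dim Kif27 reached 5.37 on replicate 4. The Hedgehog pathway motor Kif7 was low on E18 replicate 3, at 5.76. In gated E14 GFP-high cells the dim Kif15 reached 5.16 on replicate 4, and the chromosome motor Kif22 was low on replicate 2, at 10.32.

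The GFP-high minus GFP-low difference was itself different between gated and ungated cells for 10 members, by limma over all 17 arrays. The differences of the log2 differences, gated minus ungated, were −2.18 for Kif20b, −2.05 for Kif20a, −1.82 for Kif11, −1.81 for Kif22, −1.64 for Kif2c and −1.39 for Kif23, all motors of mitosis. They were −1.23 for Kif26b and −1.08 for Kif21a. For the neuronal motors Kif5a and Kif21b they were 2.33 and 0.94. The adjusted p-values ran from 0.000435 for Kif5a to 0.0297 for Kif21b. Gated and ungated arrays also differed in the Gapdh measure and, but for 1 array, in the labelling kit. All 10 were still called with the Gapdh measure as a covariate, and 8 of them with the kit as a block, which ended the calls of Kif21b and Kif23. The kit fit gives the same values as leaving out ungated GFP-high replicate 1 and is no separate check. With the mean over probe sets Kif20b, Kif21a and Kif21b were not called.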

How the results depend on the processing

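The numbers of called kinesins were 0 in the gated GFP comparison, 18 in the ungated one, 19 and 10 for E18 against E14 GFP-high and GFP-low cells, 11 and 15 for gated against ungated GFP-high and GFP-low cells, and 10 for the difference between the GFP comparisons. In the gated GFP comparison 3 members were called with a pseudocount of 64, 2 without the dimmest 40% of genes (30 members left) and 1 (Kif20a) with the Gapdh measure as a covariate. For E18 against E14 GFP-low cells 5 were called with the mean over probe sets and 5 with the covariate. With values as deposited, 16 were called for E18 against E14 GFP-high cells and 7 against E14 GFP-low cells. For gated against ungated GFP-high cells there were 5 with the covariate, 6 with the kit as a block and 6 within the MessageAmp kit. The 5 with the covariate held 4 of the 11 members, and Kif26b was called in addition. For gated against ungated GFP-low cells there were 3 with the covariate and 1 with the kit as a block. With the replicate number as a block, although the numbers do not pair the samples, the counts were 0, 15, 17, 6, 11, 15 and 9 in the order given first. Leaving out each array in turn gave 0, 15 to 18, 17 to 19, 7 to 9, 9 to 12, 10 to 15 and 8 to 11.

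Of 1318 values for single members under these alternatives, 1138 kept their call and direction, 177 kept the direction only and 3 changed sign. Kif28 in gated against ungated GFP-high cells stood at 0.071 with the kit as a block and at 0.071 within the MessageAmp kit, and Kif13b in GFP-low cells at 0.16 with the mean over probe sets. Both Kif28 values rest on the same 1 ungated array and are a single estimate, not separate sign changes. The 1318 values hold other such repeats and are not independent. The causes were not tested. Levels near log2 of the pseudocount (4), such as those of Kif2b and Kif28, cannot show a further fall.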
